A study of Homo sapiens with 6 samples.

Results

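Collagen chains are the genes whose products form the triple helices of the extracellular matrix. They were chosen here by symbol alone, as every row named COL, a number, A and a number, without antisense genes, pseudogenes or the collagen galactosyltransferases. The rule found 44 of the 35793 genes in the table. They were sorted by textbook class into 11 fibrillar chains, 8 basement membrane chains and 25 of other types. The samples were cardiomyocytes collected on day 15 of differentiation from WTC11, an established human line of induced pluripotent cells. Of the 6 libraries, 3 were wild type and 3 came from STK25KO cells, a WTC11 derivative with a homozygous knockout of the kinase gene STK25 made with CRISPR/Cas9. Neither group received a treatment, and the 3 libraries of each genotype were described as biological replicates. The knockout was represented by 1 line, so the edit and any other difference between the lines cannot be told apart.

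Collagens are made as procollagen alpha chains whose repeating glycine triplets wind into a right-handed triple helix of identical or different chains. Fibrillar collagens assemble into the cross-striated fibres that give heart and connective tissue tensile strength, type IV collagen forms the network of the basement membrane that surrounds each cardiomyocyte, and the other types coat fibrils, form beaded filaments or span the cell membrane. In the adult heart, fibroblasts are the known main source of types I and III, and fibrosis is the excess of these fibres.

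The libraries held between 22443904 and 53224112 reads assigned to genes. Values are the deposited normalized counts, which are reads divided by 1 factor per library. STK25 itself had 8874, 6774 and 8710.4 normalized counts in the wild type and 3906, 3434 and 3820 in the knockout. This drop had an adjusted p of 0.00903 by limma (log2 fold change -1.12, SE 0.19), and of 0.0609 without wild-type replicate 1. Wild-type replicate 2 and knockout replicate 1 stood apart from the other libraries on the second principal component, which carried 24.1% of the variance. Each comparison between genotypes below is limma's test on log2(value + 1) over the 15536 genes with a mean of at least 10, with Benjamini-Hochberg adjustment and a threshold of 0.05. Fold changes on that scale understate the change of low genes. The replicates being few, an exact two-sided permutation test of 3 against 3 values cannot give a p under 0.1.

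Collagen chains moved in both directions in the knockout. Of the 44 chains 33 were abundant enough to be tested, and 11 of these (33.3%) passed the threshold, where 12.8% of all tested genes did. Of the 11, 5 were higher and 6 lower in the knockout, against 5.97% and 6.79% of all tested genes. The higher chains were COL3A1, COL11A1, COL11A2, COL6A1 and COL9A3. The lower chains were COL1A2, COL5A2, COL9A1, COL14A1, COL21A1 and COL13A1. The other 22 did not pass. In 17 of the 33 the values of the genotypes did not overlap, where this held for 33.4% of all tested genes. COL9A3 and COL24A1 reached the mean of 10 only through the genotype in which they were higher, so the 33 are not a sample of the whole family. The median log2 fold change over the 33 was -0.16, beside 0.01 over all tested genes. In the same libraries the summed level of 10 smooth muscle and pericyte markers was between 92306 and 101526 in the wild type, against 504484 to 552773 in the knockout, and its part in these differences was not tested. ACTA2, the smooth muscle actin that early cardiomyocytes also make, carried most of that sum, with means of 49466 and 389103. Without wild-type replicate 1, 6 of the 11 chains passed, while the calls over all tested genes went from 1982 to 796. Without both libraries that stood apart 21 passed, 9 higher and 12 lower, where 28.9% of all genes did. The 10 added there were COL1A1, COL2A1, COL5A1, COL4A1, COL4A2, COL4A5, COL9A2, COL16A1, COL8A1 and COL26A1.

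**Figure D1:**
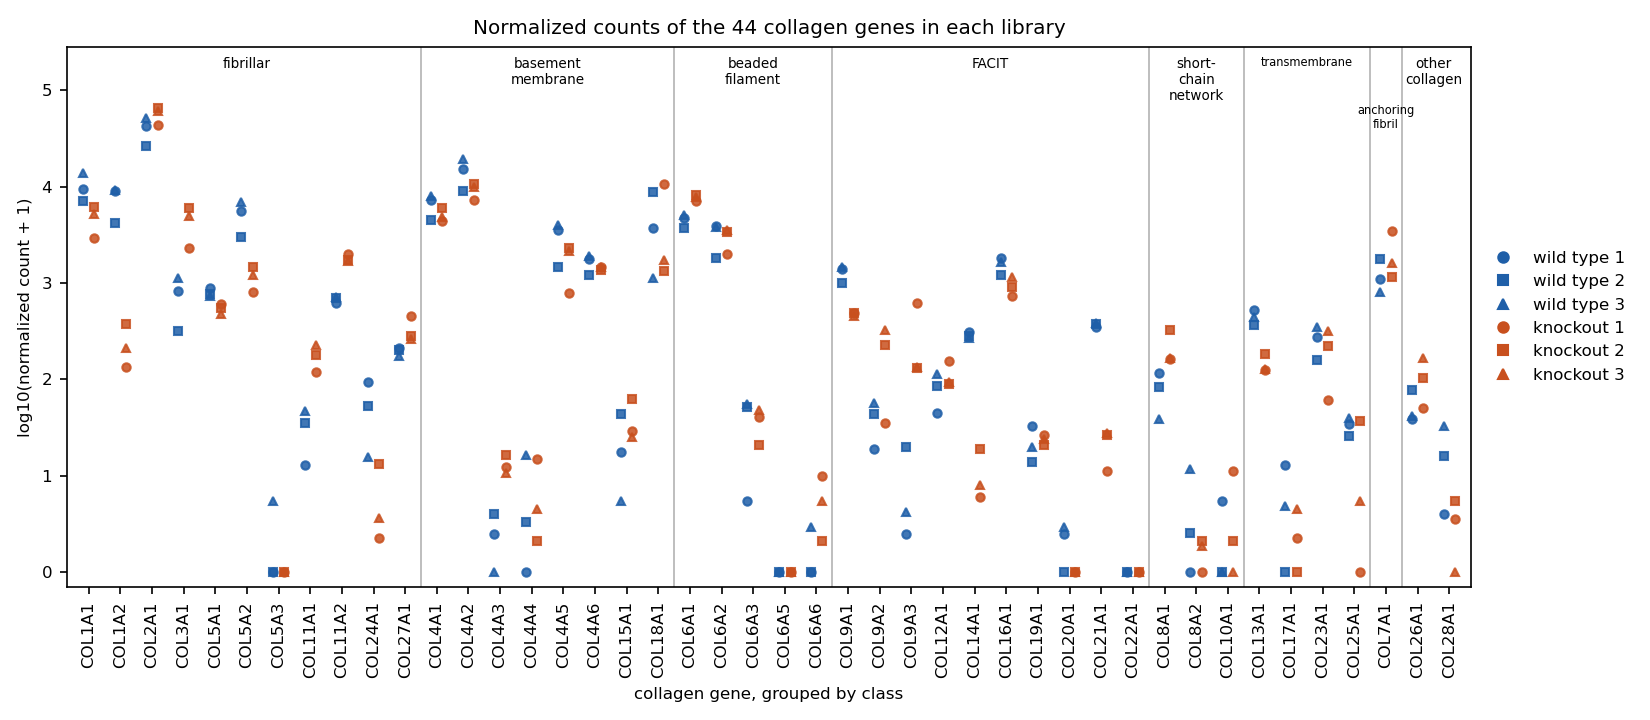
Each point is the normalized count of 1 collagen gene in 1 library, on a scale of log10(value + 1), with genes in columns by class, wild type in blue and knockout in orange. COL2A1 sits at the top in both genotypes, between 26419 and 66346, and COL1A2, COL14A1 and COL21A1 show the widest downward gaps in the knockout.

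COL2A1, the chain of cartilage collagen, was the most abundant member per length. Levels between genes are compared as normalized counts per kilobase of the longest coding transcript. On that scale the wild-type mean of COL2A1 was 7932 ± 2513 and the knockout mean 11216 ± 2345 (SD, n = 3 each). The next in the wild type were COL4A2 at 2243 ± 808, COL1A1 at 1520.3 ± 518 and COL1A2 at 1389 ± 525 (SD, n = 3 each). In the knockout they were COL6A1 at 1823 ± 126, COL4A2 at 1426 ± 276 and COL6A2 at 860.2 ± 245 (SD, n = 3 each). COL2A1 stood above the next chain by more than its SD in both genotypes. In the knockout COL6A1 was above COL4A2 by more than either SD. In the wild type COL1A1 and COL1A2 differed by less than either SD, and the gaps from COL4A2 to COL1A1 and from COL1A2 to COL6A1 were smaller than the SD of the higher chain but larger than that of the lower. With the median length of each gene's coding transcripts in place of the longest, COL4A2 ranked first and COL2A1 second in the wild type.

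COL2A1 supplied between 37.2% and 42.2% of the summed collagen level in wild-type libraries, and between 50.4% and 57.4% in knockout libraries. With median lengths these shares were 22.4% to 24.5% and 35.0% to 38.8%. COL1A2 supplied at least 5.59% in each wild-type library and at most 0.305% in each knockout library. COL3A1 went the other way, from between 0.413% and 0.845% to between 2.44% and 4.81%. The shares of the genotypes did not overlap for any of these chains. The sum over all 44 was 19685 ± 5161 per kilobase in the wild type and 20304 ± 2952 in the knockout (SD, n = 3 each), a difference smaller than the spread between replicates. COL1A2 ranked 4 of 44 in the wild type and 21 in the knockout, while COL3A1 ranked 15 and 5.

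**Figure D2:**
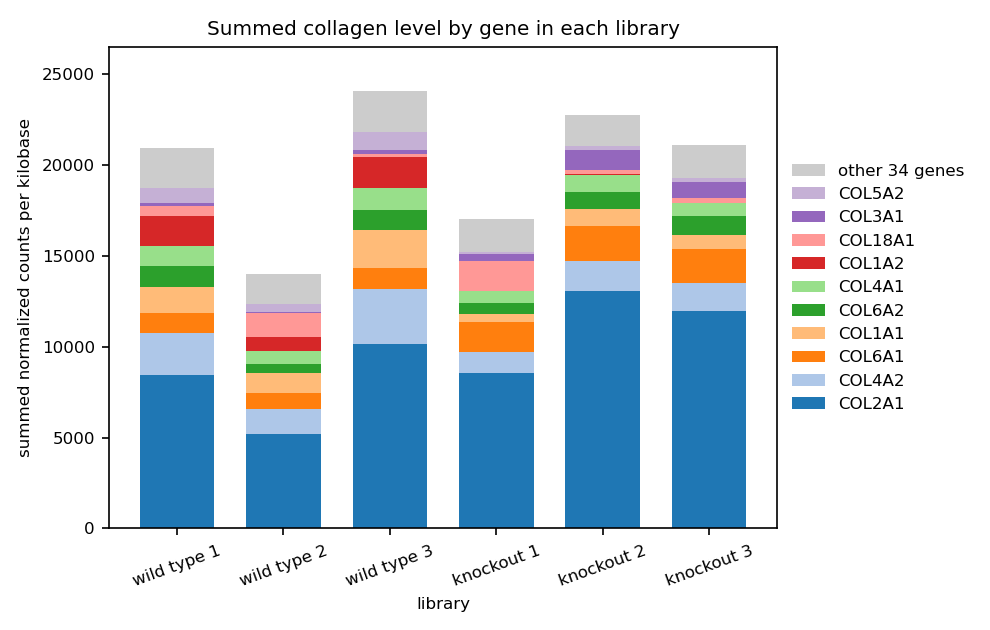
Stacked bars give the summed normalized counts per kilobase of the 10 most abundant collagen genes and of the other 34 in each library. The total ranges from 14007 in wild-type replicate 2 to 24092 in wild-type replicate 3, and the band of COL1A2 is nearly absent from the knockout libraries.

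Among the fibrillar chains, 5 of the 10 tested passed, 3 higher and 2 lower, beside 12.8% of all tested genes, 5.97% higher and 6.79% lower. COL5A3 was too low to test. COL1A2 encodes the second chain of type I collagen, the main fibre of scar, tendon and bone. It lies on the plus strand of chromosome 7 from 94394561 to 94431232 (GENCODE 29 on GRCh38, as for all gene positions here). Its normalized counts were 9072, 4237 and 9232 in wild-type replicates 1, 2 and 3 and 132, 376 and 212 in the knockout replicates. Every knockout library lay more than 10-fold under every wild-type library. The means were 7514 ± 2839 and 239.8 ± 124 (SD, n = 3 each), so the knockout held 3.19% of the wild-type level (log2 fold change -5.01, SE 0.44, limma adjusted p = 0.000616).

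COL1A1, the other chain of type I collagen (chromosome 17, minus strand, 50183289 to 50201632), had 9551, 7131 and 14000.5 normalized counts in the wild type and 2969, 6215 and 5193 in the knockout. The genotypes did not overlap, but the spread within each was wide. Its log2 fold change of -1.10 (SE 0.35) did not pass (limma adjusted p = 0.0789). With DESeq2 on the recovered reads, and without both libraries that stood apart, it did, where 20.7% and 28.9% of all tested genes passed. Both chains belong to 1 trimer. Per kilobase, COL1A1 and COL1A2 stood in ratios of 0.847, 1.35 and 1.22 in the wild type and of 18.1, 13.3 and 19.7 in the knockout. The geometric mean of the ratio was 15.0-fold higher in the knockout, a difference of 3.91 on the log2 scale with SDs of 0.36 and 0.30 (n = 3 each).

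COL3A1 encodes type III collagen, which co-assembles with type I in elastic tissues. It had 832, 321 and 1128 normalized counts in the wild type and 2302, 6078 and 4959 in the knockout. The lowest knockout library was above the highest wild-type library. COL3A1 rose 5.85-fold in mean (log2 fold change 2.61, SE 0.52, limma adjusted p = 0.0172). Without wild-type replicate 1, knockout replicate 2 or knockout replicate 3 the adjusted p was over 0.05, up to 0.0723. The ratio of COL3A1 to COL1A1 per kilobase was 0.106, 0.0546 and 0.0978 in the wild type and 0.941, 1.19 and 1.16 in the knockout. Its geometric mean was 13.2-fold higher in the knockout.

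COL5A2 is a chain of type V collagen, which nucleates type I fibrils and limits their width. It occupies 189031896 to 189225312 of chromosome 2 (minus strand), and the plus-strand COL3A1 (188974320 to 189012746) ends 19149 bases away from it. These neighbours moved in opposite directions. COL5A2 had 5625, 2979.7 and 6931 normalized counts in the wild type and 815, 1476 and 1204 in the knockout. It fell 4.45-fold in mean (log2 fold change -2.11, SE 0.36, limma adjusted p = 0.00921). Without wild-type replicate 1 its adjusted p was 0.0509. COL5A1, its partner chain, had 896, 771 and 736 normalized counts in the wild type and 610.1, 556 and 483 in the knockout. That difference of -0.54 (SE 0.21) did not pass (limma adjusted p = 0.144). The ratio of COL5A1 to COL5A2 was 2.96-fold higher in the knockout, and its values did not overlap between genotypes.

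Type XI collagen, the minor fibrillar collagen of cartilage that resembles type V, was represented by COL11A1 and COL11A2, and both rose. COL11A2 (chromosome 6, minus strand, 33162681 to 33192499) was the steadier. Its normalized counts were 625, 703 and 723 in the wild type and 2012, 1754 and 1691 in the knockout. The replicates were tightly grouped on both sides of the gap (log2 fold change 1.41, SE 0.19, limma adjusted p = 0.00342). COL11A1 was lower, with 12.1, 34.3 and 46.6 in the wild type and 118, 178 and 229 in the knockout. Its log2 fold change was 2.60 (SE 0.56, limma adjusted p = 0.0224), and it did not pass when wild-type replicate 1 (0.0610), knockout replicate 2 (0.0682) or knockout replicate 3 (0.0953) was left out.

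COL2A1 did not pass. It had 42703, 26419 and 51541 normalized counts in the wild type and 43528, 66346 and 60753 in the knockout, so the genotypes overlapped (log2 fold change 0.53, SE 0.31, limma adjusted p = 0.325). Without both libraries that stood apart its log2 fold change was 0.44 (limma adjusted p = 0.0455), in a fit where 28.9% of all tested genes passed. SOX9, the transcription factor known to drive COL2A1 in cartilage, had 0, 0.762 and 82.3 normalized counts in the wild type and 1.27, 5.57 and 108 in the knockout. SOX9 was highest in replicate 3 of each genotype, and COL2A1 was abundant in all 6 libraries. The part of SOX9 in the level of COL2A1 was not tested. COL24A1, a minor fibrillar chain, had 92.1, 52.6 and 14.7 against 1.27, 12.3 and 2.67 (log2 fold change -3.16, SE 0.95, limma adjusted p = 0.0703). It passed with DESeq2 (adjusted p = 0.0108), and it reached the filter only through the wild type. COL27A1, known from cartilage, had a log2 fold change of 0.72 (SE 0.30, limma adjusted p = 0.173).

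**Figure D3:**
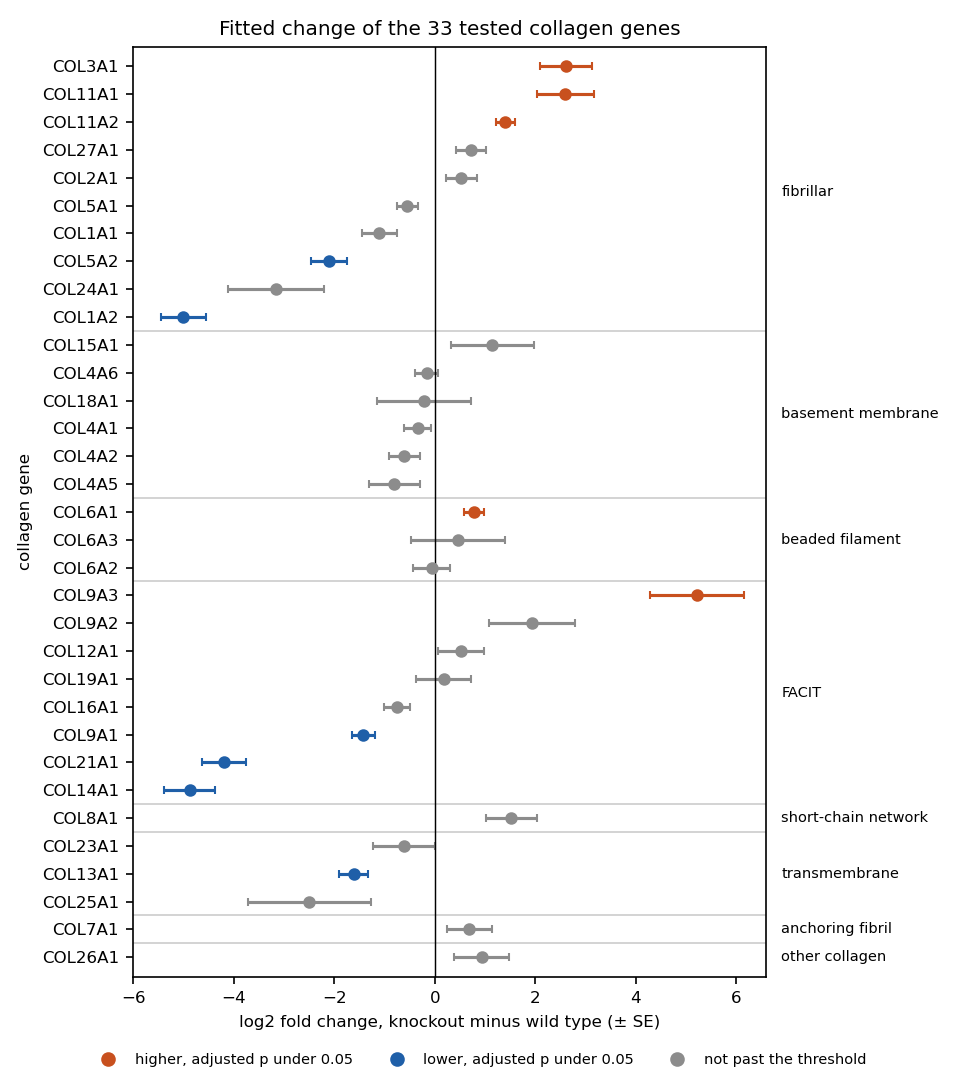
Points give the fitted log2 fold change of each of the 33 tested collagen genes, knockout minus wild type, with bars of 1 SE, by class. The fibrillar and FACIT chains spread from -5.01 to 5.22 with calls on both sides of 0. None of the 6 basement membrane chains is coloured as called, beside 12.8% of all tested genes.

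No basement membrane chain passed with limma, edgeR or DESeq2, where 12.8%, 12% and 20.7% of all tested genes did. None (0 of 6) was under an unadjusted p of 0.05, where 4275 of the 15536 tested genes were. A list of 6 is too short for a count of 0 to set this class apart from all genes. Of 8 chains 6 were tested, and the genotypes overlapped in each. COL4A1 and COL4A2 encode the ubiquitous chains of the type IV network. COL4A1 had 7209, 4523 and 7970.5 normalized counts in the wild type and 4376, 6073 and 4818 in the knockout (log2 fold change -0.34, SE 0.26, limma adjusted p = 0.458). COL4A2 had 15281, 8995 and 19418 against 7229, 10618 and 9938 (log2 fold change -0.60, SE 0.31, limma adjusted p = 0.262). Both were lowest in wild-type replicate 2 among the wild-type libraries and in knockout replicate 1 among the knockout libraries. Without these 2 libraries both were past the threshold, with limma adjusted p-values of 0.0356 and 0.00546. In that fit 28.9% of all tested genes passed, and leaving out the most deviant libraries lowers the spread by construction.

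The ratio of COL4A1 to COL4A2 per kilobase varied little, between 0.403 and 0.494 in wild-type and between 0.476 and 0.594 in knockout libraries. This was the least variable of the 7 partner ratios that could be computed, with SDs of 0.15 and 0.17 on the log2 scale. The genes lie head to head on chromosome 13, and their start sites in RefSeq (GRCh38.p14) leave 126 bases between them. That interval is shown because it is the promoter region both genes share, read on the strand of COL4A2, with a CCAAT box and a GC box (GGGCGG) in capitals, at chr13:110307158-110307283.
COL4A1-COL4A2: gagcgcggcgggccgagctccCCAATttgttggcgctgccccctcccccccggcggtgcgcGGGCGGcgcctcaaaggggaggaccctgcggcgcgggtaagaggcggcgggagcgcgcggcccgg

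COL4A5 and COL4A6 form another head-to-head pair on chromosome X, and their chains are known to assemble together in some basement membranes. COL4A5 had 3586, 1468.5 and 4021 normalized counts in the wild type and 793, 2335 and 2147 in the knockout (log2 fold change -0.80, SE 0.51, limma adjusted p = 0.366). As with COL4A1 and COL4A2, it passed without wild-type replicate 2 and knockout replicate 1, the lowest of their genotypes (limma adjusted p = 0.00419). The same limit holds, as 28.9% of all tested genes passed in that fit. COL4A6 was steadier, at 1781, 1208 and 1925 against 1472, 1372 and 1478 (log2 fold change -0.16, SE 0.23, limma adjusted p = 0.719). Their ratio spanned 1.27 to 2.18 in wild-type and 0.561 to 1.77 in knockout libraries, with 379 bases between the nearest RefSeq start sites. COL4A3 and COL4A4, the kidney and cochlea chains, were too low to test. COL4A3 had 1, 4 and 0 reads in the wild type and 9, 14 and 11 in the knockout, and COL4A4 at most 24 reads in any library.

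COL15A1 and COL18A1 carry the glycosaminoglycan chains of the basement membrane zone, and COL18A1 is the source of endostatin. COL18A1 was uneven within both genotypes, with 3744, 8921 and 1137 normalized counts in the wild type and 10634, 1329.7 and 1726 in the knockout. Its high libraries were wild-type replicate 2 and knockout replicate 1, the same ones that stood apart over all genes. Its log2 fold change of -0.21 (SE 0.93, limma adjusted p = 0.918) was far smaller than this spread. COL15A1 was low, spanning 4.47 to 42.7 in wild-type and 24.0 to 62.4 in knockout libraries, and the genotypes overlapped.

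The FACIT collagens, which sit on the surface of fibrils, held the deepest falls outside type I. Of 10 chains 8 were tested, of which 3 fell and 1 rose, beside 6.79% lower and 5.97% higher of all tested genes. COL14A1, which binds fibrils of skin and tendon, lies on chromosome 8 from 120059780 to 120372036. It had 307, 280.3 and 270.5 normalized counts in the wild type and 5.08, 17.8 and 7.11 in the knockout. The knockout held 3.50% of the wild-type mean (log2 fold change -4.88, SE 0.51, limma adjusted p = 0.00125). COL21A1, a small FACIT chain of vessel walls, lies on chromosome 6 from 56056590 to 56394094. It had 349, 374 and 386 against 10.2, 25.6 and 26.7, or 5.63% of the wild-type mean (log2 fold change -4.20, SE 0.44, limma adjusted p = 0.00127). The wild-type replicates of both chains were tight, with SDs of 18.7 and 18.9, and every knockout library lay more than 10-fold under them.

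The type IX chains, which decorate type II fibrils in cartilage, moved apart. COL9A1 (chromosome 6, 70215061 to 70303083) had 1411, 1011 and 1468 normalized counts in the wild type and 489, 490.4 and 450.6 in the knockout. It fell 2.72-fold in mean (log2 fold change -1.42, SE 0.22, limma adjusted p = 0.00668). COL9A3 (chromosome 20, 62816244 to 62841159) had 1.51, 19.0 and 3.19 in the wild type and 620.3, 130.4 and 133 in the knockout. It rose by 5.22 on the log2 scale (SE 0.93, limma adjusted p = 0.0112), and its highest library in each genotype was again wild-type replicate 2 or knockout replicate 1. COL9A3 reached the mean of 10 only through the knockout, so its direction was partly fixed by the filter. COL9A2 had 18.1, 42.7 and 55.5 against 34.3, 226 and 326 and did not pass (log2 fold change 1.93, SE 0.86, limma adjusted p = 0.193). Its lowest knockout library was replicate 1, and without that library or with DESeq2 it passed. COL9A1 and COL19A1 lie 5084 bases apart, and COL19A1 had a log2 fold change of 0.18 (SE 0.55, limma adjusted p = 0.875).

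COL16A1, a FACIT chain with 1823, 1221 and 1636 normalized counts in the wild type and 729.6, 904 and 1156 in the knockout, did not pass (log2 fold change -0.75, SE 0.25, limma adjusted p = 0.0986). With DESeq2, and without both libraries that stood apart, it did. COL12A1, a fibril-bound chain of tendon and muscle, had a log2 fold change of 0.52 (SE 0.46, limma adjusted p = 0.524). COL20A1 had at most 3 reads in any library, and COL22A1 had none.

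Type VI collagen forms the beaded filaments that tie the basement membrane of muscle to the surrounding matrix. COL6A1 (chromosome 21, 45981737 to 46005050) had 4709.6, 3734 and 5108 normalized counts in the wild type and 7128, 8159 and 7886 in the knockout. It rose 1.71-fold in mean (log2 fold change 0.78, SE 0.19, limma adjusted p = 0.0357). This call was lost in 10 of 20 alternatives, with adjusted p-values up to 0.241, among them equal totals and the removal of any 1 library other than knockout replicate 1. COL6A2, on the same strand 93046 bases away, had 3930.2, 1802 and 3845 against 2006, 3363 and 3563 (log2 fold change -0.06, SE 0.36, limma adjusted p = 0.942). Their ratio per kilobase spanned 0.979 to 1.69 in wild-type and 1.81 to 2.90 in knockout libraries. COL6A3, the largest chain, was scarce, with 4.53, 51.0 and 54.2 normalized counts in the wild type and 39.4, 20.1 and 47.1 in the knockout. COL6A5 had no read in any library, and COL6A6 had at most 7.

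**Figure D4:**
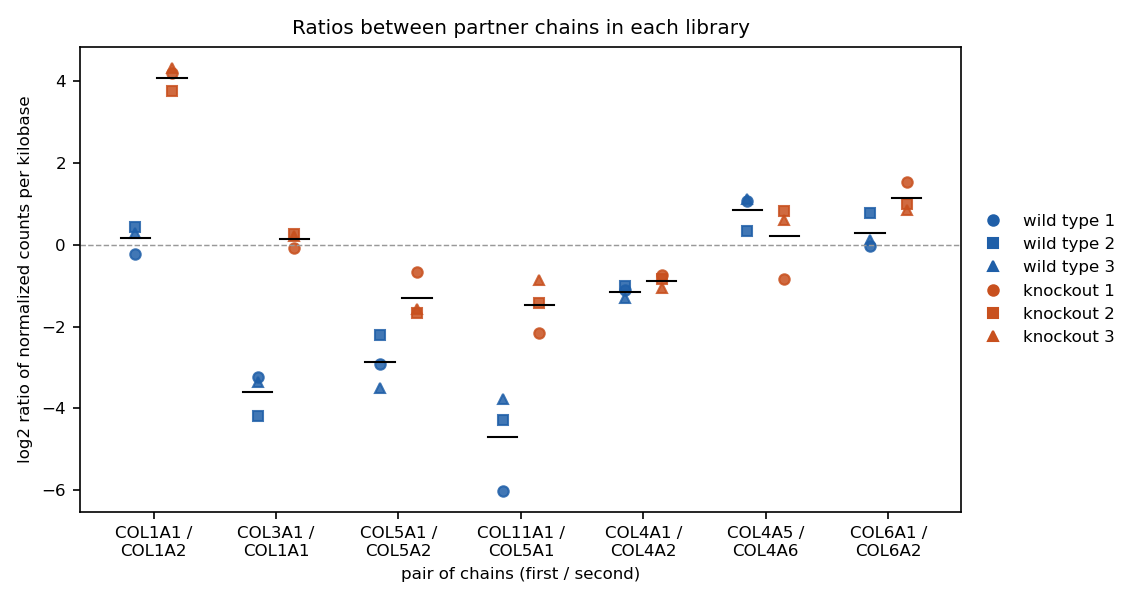
Each point is the log2 ratio of normalized counts per kilobase between a pair of chains in 1 library, and black lines are means over the 3 libraries of a genotype. The ratio of COL1A1 to COL1A2 lies near 0 in the wild type and above 3.7 in the knockout, while the ratios of COL4A1 to COL4A2 overlap between genotypes.

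Among the membrane-spanning chains COL13A1, a component of the neuromuscular junction, fell. COL13A1 (chromosome 10, 69801867 to 69964275) had 523, 367 and 441 normalized counts in the wild type and 126, 182 and 128 in the knockout. The knockout mean was 32.7% of the wild-type mean (log2 fold change -1.61, SE 0.29, limma adjusted p = 0.0111). Without wild-type replicate 1 or 3 it was over the threshold, with adjusted p-values up to 0.0699. COL23A1 (log2 fold change -0.61, limma adjusted p = 0.590) and COL25A1 (-2.49, limma adjusted p = 0.236) overlapped between genotypes. COL25A1 had 33.2, 25.1 and 38.9 in the wild type but 0, 35.7 and 4.44 in the knockout, and COL17A1 had at most 8 reads.

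Of the remaining types, COL7A1, the anchoring fibril chain of skin, had 1098, 1785 and 806 normalized counts in the wild type and 3474, 1164 and 1629.9 in the knockout (log2 fold change 0.69, SE 0.45, limma adjusted p = 0.373). Its highest library was, as for COL18A1, wild-type replicate 2 and knockout replicate 1. COL8A1, a network collagen of vessel walls, had 115, 83.0 and 37.6 against 161, 329 and 167 (log2 fold change 1.53, SE 0.50, limma adjusted p = 0.0908). It passed with DESeq2 and without both libraries that stood apart. COL26A1 did not pass (log2 fold change 0.93, SE 0.54, limma adjusted p = 0.318). COL8A2, COL10A1 and COL28A1 were too low to test. COL28A1, on the short arm of chromosome 7, had 2, 20 and 50 reads in the wild type and 2, 4 and 0 in the knockout. In all, 11 of the 44 chains were under the filter. COL6A5 and COL22A1 had no read in any library, which allows up to 3 reads in each, for counting error only.

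Library differences within a genotype ran through the family. Wild-type replicate 2 and knockout replicate 1 were each set against the log2 mean of the other 2 libraries of their genotype. Of the 33 tested chains, 15 were below that mean in both and 7 were above it in both. These counts were not made over all tested genes. The median difference on the log2 scale was -0.39 in wild-type replicate 2 and -0.51 in knockout replicate 1, where the medians over all tested genes were within 0.02 of 0. Over the 33 chains the differences in these libraries had r = 0.49, beside r = 0.45 over all tested genes, as a description without a test. The chains above by the widest margins in both, COL18A1, COL9A3 and COL7A1, had GC contents of 67.2%, 67.4% and 64.8%, among the highest of the family. COL23A1 at 66.0% and COL6A2 at 66.4% were low in both, and the part of GC content in these deviations was not tested. When each library's trend over GC content and length was removed, the same 11 chains passed. COL1A2, COL11A2, COL9A1, COL9A3, COL14A1 and COL21A1 passed in all 20 alternatives. Of these, COL9A3 reached the filter only through the knockout.

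**Figure D5:**
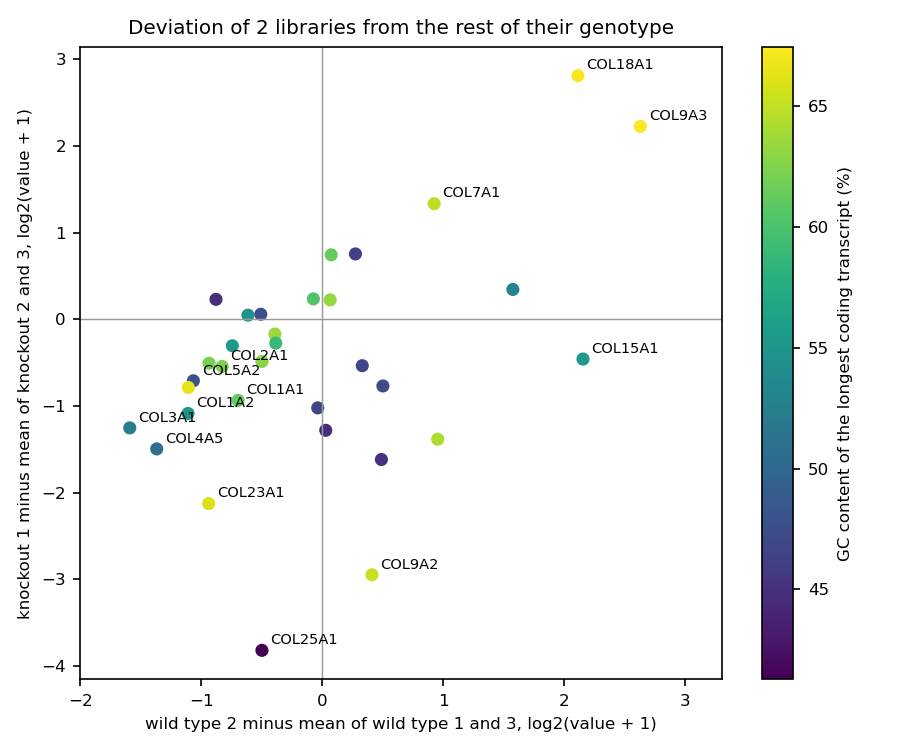
For each of the 33 tested collagen genes the horizontal axis gives wild-type replicate 2 minus the mean of replicates 1 and 3, and the vertical axis knockout replicate 1 minus the mean of replicates 2 and 3, both on log2(value + 1), with GC content as colour. COL18A1, COL9A3 and COL7A1 lie at upper right, and COL1A1, COL1A2, COL3A1, COL5A2 and COL4A5 at lower left.

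RefSeq promoter windows were matched for 32 of the 44 chains by symbol. COL1A1, COL1A2, COL2A1, COL3A1, COL5A2, COL6A1, COL6A5, COL9A3, COL14A1, COL20A1, COL22A1 and COL8A1 had no entry in the table used. The 32 chains had 44 windows, one for each start site, and the 250 bases before the start were searched on both strands. CCAAT was found in 12 windows (27.3%, beside 32.0% of all 35116 windows), GGGCGG in 24 (54.5%, beside 42.6%) and TATAAA in 8 (18.2%, beside 10.7%). Of the called chains COL11A1 and COL13A1 had 1 window each, so their sequences are given as examples of a chain that rose and one that fell, with these motifs, or their reverse complements CCGCCC and ATTGG, in capitals. That of COL11A1, at chr1:103108523-103108772 on the minus strand, held 1 CCAAT and 3 GGGCGG matches. That of COL13A1, at chr10:69801656-69801905 on the plus strand, held a TATAAA match and neither of the others.
COL11A1: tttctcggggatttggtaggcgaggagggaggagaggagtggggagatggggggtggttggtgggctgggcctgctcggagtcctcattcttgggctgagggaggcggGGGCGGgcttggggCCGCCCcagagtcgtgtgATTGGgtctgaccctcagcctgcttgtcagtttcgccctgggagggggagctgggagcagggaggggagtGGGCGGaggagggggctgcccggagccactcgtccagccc
COL13A1: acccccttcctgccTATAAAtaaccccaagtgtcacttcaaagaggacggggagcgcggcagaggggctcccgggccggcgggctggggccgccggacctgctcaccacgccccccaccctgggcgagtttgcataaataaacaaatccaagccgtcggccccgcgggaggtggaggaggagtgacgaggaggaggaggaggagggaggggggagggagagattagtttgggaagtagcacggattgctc

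The enzymes and chaperones that modify collagen in the endoplasmic reticulum were compared next. All 18 genes of that list were tested, of which 1 rose and 3 fell. Each list count here and below stands beside 12.8% of all tested genes that passed, 5.97% higher and 6.79% lower. The shares of 12.5% for fibril-associated genes, 14.3% for breakdown genes and 18.2% for TGF-beta genes lie near it. CRTAP and P3H4 belong to prolyl and lysyl hydroxylase complexes, and FKBP10 is a collagen chaperone. CRTAP had 2741, 2633 and 2524 normalized counts in the wild type and 859, 987.5 and 1142 in the knockout (log2 fold change -1.41, limma adjusted p = 0.00342). FKBP10 had 1137, 1417 and 975 against 319, 275 and 329.7 (-1.92, limma adjusted p = 0.00231), and P3H4 fell by 1.23 (limma adjusted p = 0.00728). P4HA3, a minor prolyl hydroxylase subunit, had at most 3 reads in each wild-type library and was at least 21.4-fold higher in the knockout, through which alone it reached the filter. The general factors did not pass, among them SERPINH1, the collagen chaperone HSP47 (log2 fold change -0.46, limma adjusted p = 0.155), and P4HB (0.15, limma adjusted p = 0.777). The list's median was 0.36. None of 10 procollagen export genes passed with limma, edgeR or DESeq2. None of them (0) was at an unadjusted p under 0.05, where 4275 of all 15536 tested genes were.

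Genes of procollagen processing and cross-linking outside the cell were compared as well. Of 8 processing genes PCOLCE and PCOLCE2, enhancers of procollagen C-proteinase, fell and the proteinase TLL2 rose. PCOLCE2 had 214, 164 and 224 normalized counts in the wild type and 15.3, 49.0 and 26.7 in the knockout (log2 fold change -2.82, limma adjusted p = 0.00938), and was over the threshold without wild-type replicate 1 (0.0537). PCOLCE had a log2 fold change of -1.08 (limma adjusted p = 0.0253) and TLL2 of 1.74 (limma adjusted p = 0.0182). Neither passed without wild-type replicate 1 or 3 or without knockout replicate 2 or 3 (adjusted p at most 0.107). The same held with the replicate number as a block, and PCOLCE also did not pass without wild-type replicate 2. Of 7 cross-linking genes LOXL1 (-2.08, limma adjusted p = 0.0133), LOXL3 (-1.53, limma adjusted p = 0.0257) and TGM2 (-1.23, limma adjusted p = 0.0446) fell. TGM2 was over the threshold in 10 of 20 alternatives. LOXL3 was over it in 4, among them the removal of knockout replicate 3 (0.0659) and of replicate 1 or 3 of the wild type, and LOXL1 without wild-type replicate 1 (0.0705). LOX itself had 30.2, 14.5 and 3.83 against 57.2, 91.4 and 114 and did not pass (limma adjusted p = 0.0520).

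Partners in the matrix moved both ways. Of 8 tested fibril-associated genes only DCN, the proteoglycan decorin, passed, with 19.6, 16.0 and 4.47 normalized counts in the wild type and 55.9, 100.3 and 116 in the knockout (log2 fold change 2.82, limma adjusted p = 0.0276), and it was over the threshold without wild-type replicate 1 or 3 or knockout replicate 2 or 3. Of 12 basement membrane partners LAMA4 and LAMA2, laminin alpha chains of muscle and vessels, fell and LAMA5 rose. LAMA4 had 6002, 6222 and 6098 against 113, 109 and 174 (log2 fold change -5.55, SE 0.24, limma adjusted p = 5.66e-05). LAMA2 (-0.99, limma adjusted p = 0.0231) and LAMA5 (0.95, limma adjusted p = 0.0119) changed less. Without wild-type replicate 1 or 3 neither passed, LAMA5 did not pass with equal totals, and LAMA2 did not without knockout replicate 2 or 3. The laminins thus included a chain that fell as far as COL1A2 in the same libraries in which no basement membrane collagen passed; the difference between these lists was not tested.

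Among 10 collagen receptors ITGA1, the integrin chain that binds type IV and type I collagen, rose from 136, 87.6 and 176 to 1147, 2225 and 1375 normalized counts (log2 fold change 3.56, SE 0.36, limma adjusted p = 0.00110). The receptor kinase DDR1 fell by 1.05 (limma adjusted p = 0.0292, over the threshold without wild-type replicate 1 or 3 or knockout replicate 3). Of 7 tested breakdown genes TIMP1, an inhibitor of matrix metalloproteinases, fell by 2.04 (limma adjusted p = 0.00790). MMP2, a gelatinase, did not pass, with 791, 602 and 1276 against 103, 272 and 431 (limma adjusted p = 0.0581). Of 11 genes known to be induced by or to signal for TGF-beta, CCN2 rose by 2.45 (limma adjusted p = 0.00126) and TGFB2 by 1.18 (limma adjusted p = 0.0149), and the list's median was -0.40. TGFB2 was over the threshold in 5 of 20 alternatives, equal totals and the fits without wild-type replicate 3, knockout replicate 2 or knockout replicate 3 among them (adjusted p at most 0.0988).

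Markers of cells that also make collagen were measured in the same libraries, in which 12.8% of all tested genes passed. The cardiomyocyte gene TNNT2 had between 206999 and 270043 normalized counts in the wild type and between 226420 and 359162 in the knockout, and of its list of 10 PLN and NKX2-5 fell. In that list 5 had a positive log2 fold change, and its sum was 865008 to 931412 against 1001410 to 1045260. MYH7 (means of 93527 and 234627) and ACTN2 (48521 and 108138) were higher and MYH6 (142436 and 62131) lower, without passing. Of 10 fibroblast markers 9 were tested, of which 6 had a positive log2 fold change. TCF21, DCN and THY1 passed, all higher in the knockout. MFAP5 was lower without passing, with means of 43.3 and 6.42 (limma adjusted p = 0.0594), and reached the filter only through the wild type. The summed level of the 10 spanned 4898 to 7489 in wild-type and 5945 to 9056 in knockout libraries, so it overlapped. FBLN1, with means of 4287 and 3623, was the largest part of that sum, and DPT had at most 8 reads. Of 10 smooth muscle and pericyte markers MYH11, CNN1, TAGLN, ACTA2 and SMTN rose and none fell. The pericyte genes of that list did not pass, with means of 9309 and 8491 for RGS5, 237 and 74.3 for CSPG4, 525 and 415 for NOTCH3, and 35.9 and 221 for PDGFRB. Of 10 cartilage markers 4 were tested and HAPLN1 rose, and the sum was 525 to 679 against 948 to 1351, with HAPLN1 means of 315 and 808. ACAN and COMP had at most 11 reads in any library and UCMA none, although COL2A1 was abundant. Of 10 endothelial markers 5 were tested and ESAM rose, while CDH5, TIE1 and ERG had at most 2 reads. Their sum spanned 1279 to 1401 in wild-type and 2093 to 2893 in knockout libraries, with ESAM means of 13.5 and 712. Of 10 epicardial markers 9 were tested, ALDH1A2 rose and KRT19 fell, and the sum was 16273 to 17838 against 7141 to 10146. KRT19, with means of 12908 and 4910, and LRRN4, with 3774 and 3028, made up most of that sum. WT1 (17.3 and 112) and TBX18 (109 and 244) were higher in knockout means and did not pass. Of 10 endoderm and liver markers 5 were tested and AFP and FGB fell, and of 8 neural markers 5 were tested and SOX2, PAX6 and TUBB3 rose. ALDH1A2, AFP, FGB, SOX2 and PAX6, with 4 of the 5 tested endoderm and 3 of the 5 tested neural markers, reached the filter only through the genotype in which they were higher, so their direction was partly fixed by the filter. The part of other cell types in the collagen differences was not tested. In bulk RNA, fewer cells of a type and less RNA per cell cannot be told apart.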

How the data were processed

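RNA was measured in 6 libraries, 3 of each genotype. The deposited table holds 1 signal per gene symbol and library, which the authors call normalized counts. Per the submitters' processing notes, bcl2fastq 2.19, kallisto 0.44.0, DESeq2 1.28.1 and GRCh38 were used, with no role or order given. Per the labels' protocols, cDNA came from a low-input kit followed by NexteraXT, and strand use is not given in the sources used here. Every value was a whole multiple (within 0.01) of 1 step per library, so whole reads were recovered. A floor of 3 reads covers counting error alone. Each library counted as 1 replicate, because replicate pairs differed by far more than counting error (chi-square over its degrees of freedom, 18.9 to 363).

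Tests used limma 3.58.1 in R 4.3.3 (lmFit, eBayes with a trend) on log2(value + 1). As alternatives, the recovered reads were fitted with edgeR 4.0.16, which called 1864 genes, and with DESeq2 1.42.0, which called 3210. The fits were tested on simulated data. Transcript lengths, GC content and positions came from GENCODE 29, matched by symbol for all 44 chains. How reads shared by similar or overlapping genes were assigned is not given in the sources used here. Of each partner list, the genes with an adjusted p under 0.05 are named, at most 6. SERPINH1, P4HB, LOX, MMP2, SOX9 and the markers were named after their values were seen. Members and lists were chosen with earlier results of these data known. Alternatives were pseudocounts of 0.1 and 10, no filter or a mean of 50, 3 scalings, a replicate block, other variance models, leaving out each library, and median transcript lengths. Leaving out 2 libraries and removing GC and length trends were chosen after seeing the data. Figures used Python 3.11.15 and matplotlib 3.10.9.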

Additional observations from a re-analysis of the deposited data

How the results depend on the processing

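The number of genes called, 1982, was 798 with the replicate number as a block, 3210 with DESeq2, 4483 without wild-type replicate 2 and knockout replicate 1, and from 796 to 2181 without 1 library. Leaving out the most deviant library of each genotype lowers the spread by construction. Chains called higher, 5, ran from 2 to 6 without 1 library, and were 7 with DESeq2 and 9 without both libraries that stood apart. Chains called lower, 6, ran from 4 to 6 without 1 library, and were 9 with DESeq2 and 12 without both. The replicate block kept 9 of the 11 chains, without COL6A1 and COL13A1, and gave STK25 -1.12 with an adjusted p of 0.0684. Same-numbered libraries correlated at -0.23, -0.40 and 0.17 in their deviations, and wild-type replicate 2 with knockout replicate 1 at 0.45. As the libraries that stood apart weigh on such deviations, whether the numbers pair the libraries cannot be told. Without 1 library STK25 ran from -1.24 to -1.05, and its adjusted p was 0.0609 without wild-type replicate 1.

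Signs turned in chains that did not pass. Without 1 library COL18A1 ran from -1.15 to 0.49, COL6A2 from -0.43 to 0.20, COL6A3 from -0.64 to 1.02, COL19A1 from -0.11 to 0.50 and COL23A1 from -1.09 to 0.10. COL6A2 was 0.052 with GC and length trends removed. COL6A3 was -0.072 with edgeR and -0.055 with DESeq2, and COL19A1 was -0.089 with equal totals and -0.19 without both libraries. Equal totals moved the median of all genes to -0.27, with 27.4% of calls higher in place of 46.8%, and 10 of the 11 chains passed, without COL6A1. With median transcript lengths the summed collagen level was 35689.6 per kilobase in the wild type and 31802.8 in the knockout, so its order between genotypes turned. The 11 chains under a mean of 10 lacked the depth for a test.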
